A study of Mus musculus with 13 samples.

Results

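The 10 genes described here encode the enzymes that lengthen long-chain fatty acids in the endoplasmic reticulum. They are the 7 elongases *Elovl1* to *Elovl7* and 3 partners that complete the cycle, *Hsd17b12*, *Tecr* and *Hacd2*. They were chosen by name as one family, with earlier results of these data known, and all 10 had a row among the 34419 genes counted. Of the 10, 9 passed the filter on low counts and were tested together with 17779 genes in all, whereas *Elovl2* was too low.

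RNA was sequenced from gluteal white adipose tissue (WAT), a subcutaneous depot at the rear of the body, of 13 male C57BL/6J mice, with 1 library per mouse. One group of 7 mice was kept at 22°C, a cool room temperature, and the other group of 6 mice at 29°C, which is close to thermoneutral, from birth until 13 weeks of age. In both groups the rear of the body was depilated after weaning and the mice lived without cage mates or material for a nest. Neither group therefore shows gluteal WAT under intact fur. The comparison addresses which transcripts of this depot differ after life at a cooler temperature, and here whether those of fatty acid elongation did. Fold changes are given as 22°C relative to 29°C.

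Fatty acid elongation adds carbon pairs from malonyl-CoA to an acyl-CoA in 4 enzymatic steps. An elongase condenses the chain with malonyl-CoA and sets which chains are lengthened, a ketoacyl-CoA reductase and a hydroxyacyl-CoA dehydratase process the product, and a trans-enoyl-CoA reductase completes the cycle. In white fat the cycle is best known for turning the palmitate made by fatty acid synthase into stearate, which is then desaturated to oleate, and it also supplies the very long acyl chains of sphingolipids and of skin and brown fat lipids.

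Library totals ran from 22356637 to 25245785 counts and fell into 2 clusters, 5 libraries of up to 22857079 counts that were all from mice at 22°C, and 8 libraries of 24821549 or more, of which 2 were from mice at 22°C and 6 from mice at 29°C. A count of 0 allows up to 0.113 to 0.158 CPM (counts scaled to the size of the library), depending on the library, and covers counting error only. Mature adipocyte markers were abundant in every library, with a summed level of 38770 to 60120 CPM. The share of counts in skeletal muscle markers was 0.0972% to 8.59% at 22°C and 0.0149% to 0.81% at 29°C. All 18 muscle markers had a positive log2 fold change, with a median of 3.03. None passed the threshold in edgeR, 11 had an unadjusted p below 0.05, and 10 passed with DESeq2. Over all genes tested, 345 (1.94%) passed P-adj below 0.1 in edgeR's quasi-likelihood test, 130 (0.731%) higher and 215 (1.21%) lower at 22°C.

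None of the 9 tested genes of the elongation cycle passed P-adj below 0.1 (edgeR), against 1.94% of all genes tested. At an unadjusted p below 0.05 the count was also 0 of 9, against 18.5% of all genes. With DESeq2, which gave *Elovl3* no adjusted p, the count was 0 as well, against 10.2% of the 16388 genes with an adjusted p. In no member were the groups separate, whereas 1.24% of all genes tested had groups that did not overlap. Its log2 fold change came to positive for 4 members and negative for 5, with a median of -0.03, and the median over all genes tested was 0.0074. The members differed in how tightly the test bounded a change. The 95% intervals of *Elovl1*, *Elovl5*, *Hacd2*, *Tecr* and *Hsd17b12* lay within the range from -0.42 to 0.74 on the log2 scale, whereas those of *Elovl3*, *Elovl4*, *Elovl6* and *Elovl7* were wider. The widest was that of *Elovl3*, at -2.01 to 1.95, and that of *Elovl6* reached highest, at -0.27 to 2.46.

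**Figure D1:**
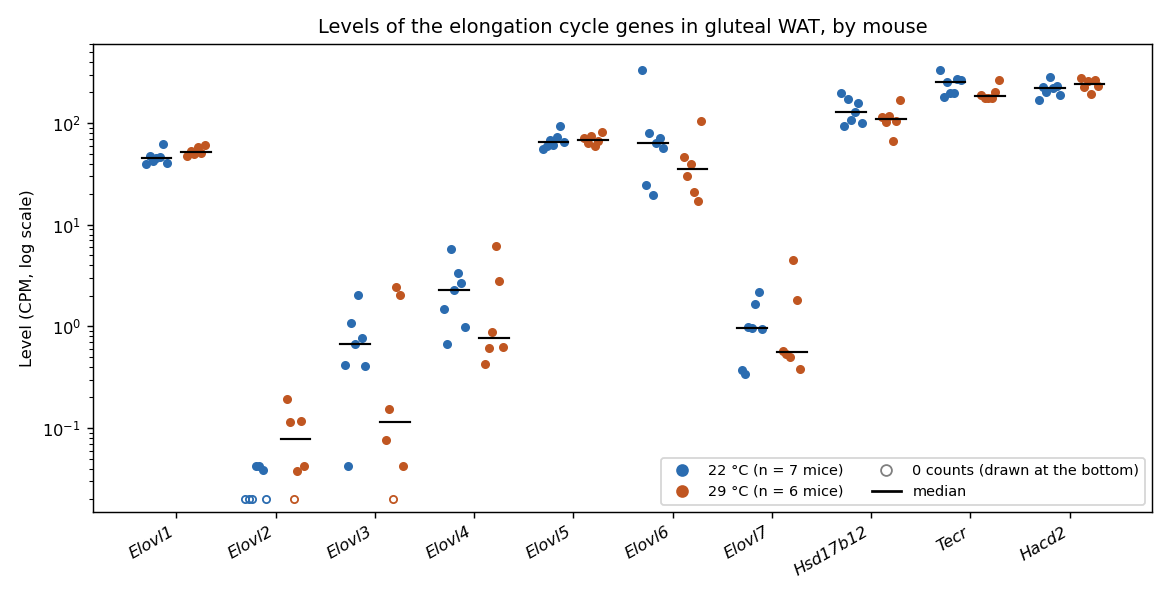
Level of each elongation cycle gene in each mouse, in CPM on a log axis, with 1 point per mouse (22°C, n = 7; 29°C, n = 6), a line at each group's median above 0, and open circles at the bottom for libraries with 0 counts. The groups overlap for every gene, and *Elovl6* reaches 333.9 CPM in 1 mouse at 22°C against 19.5 to 79.4 CPM in the other 6.

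**Figure D2:**
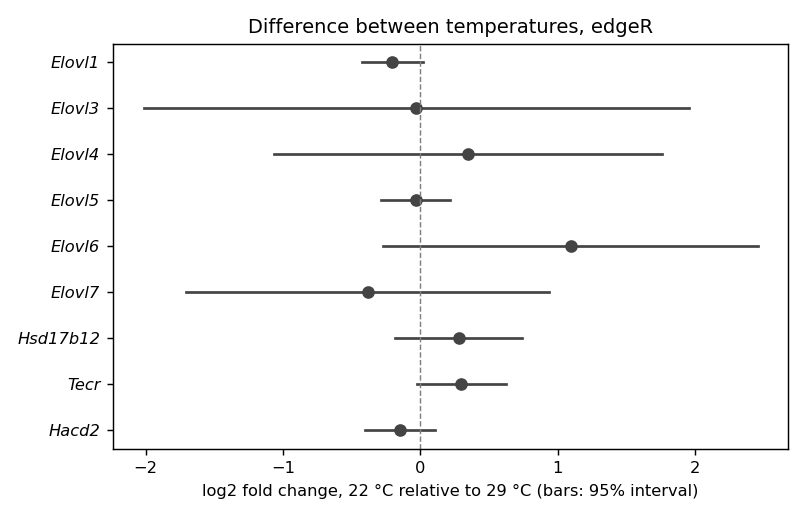
Log2 fold change of the 9 tested genes, 22°C relative to 29°C, from edgeR, with 95% intervals as bars and a dashed line at 0. Every interval includes 0, and the interval of *Elovl3* (-2.01 to 1.95) is the widest.

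Levels were first compared between the genes after division by the length of each gene's exons, which gives CPM per kilobase, averaged over the 13 mice. The partners were above the elongases. *Tecr* was highest at 102 ± 23.1 CPM per kb (SD, n = 13), followed by *Hacd2* at 61.1 ± 9.45 and *Hsd17b12* at 52.2 ± 15.5. Among the elongases, *Elovl5* (19.5 ± 2.99 CPM per kb), *Elovl1* (18.2 ± 2.73) and *Elovl6* (10.9 ± 13.0) were well above *Elovl4* (0.732 ± 0.642), *Elovl3* (0.397 ± 0.435), *Elovl7* (0.303 ± 0.289) and *Elovl2* (0.0122 ± 0.0149). Ranges over the mice were separate between *Tecr* and *Hacd2*, between *Hsd17b12* and *Elovl5*, between *Elovl6* and *Elovl4* and between *Elovl7* and *Elovl2*. The other neighbours in this order overlapped, and *Hacd2* was above *Hsd17b12* in 9 of 13 mice, *Elovl5* above *Elovl1* in 10, and *Elovl3* above *Elovl7* in 6.

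*Elovl5* had the highest level per length among the elongases in 9 mice, *Elovl1* in 3 mice and *Elovl6* in 1 mouse. *Elovl6* made up 62.6% of the summed elongase level per length in that mouse, 22°C replicate 1. The median share of *Elovl6* was 19.6% at 22°C and 12.2% at 29°C, over ranges of 7.96% to 62.6% and 6.30% to 26.5%. *Elovl5* had a median share of 42.8% at 22°C and 43.5% at 29°C, and *Elovl1* of 34.7% and 41.8%. The ranges of all 3 shares overlapped between temperatures.

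Promoter sequences are given for *Elovl6*, *Hsd17b12* and *Tecr*, because the transcripts of these 3 genes varied together across the mice, as described further on. The windows are the 250 bases before the start of each gene in RefSeq, build GRCm38.p6, written 5′ to 3′ along the strand of the gene, and 9 of the 10 genes had at least 1 such window (11 in all, with *Elovl3* the gene without an entry). Capitals mark a CCAAT box (CCAAT, or ATTGG on the other strand) or a GC box (GGGCGG, or CCGCCC on the other strand). The window of *Elovl6* is chr3:129532136-129532385 on the plus strand, that of *Hsd17b12* is chr2:94157910-94158159 on the minus strand, and that of *Tecr* is chr8:83594492-83594741 on the minus strand.
Elovl6: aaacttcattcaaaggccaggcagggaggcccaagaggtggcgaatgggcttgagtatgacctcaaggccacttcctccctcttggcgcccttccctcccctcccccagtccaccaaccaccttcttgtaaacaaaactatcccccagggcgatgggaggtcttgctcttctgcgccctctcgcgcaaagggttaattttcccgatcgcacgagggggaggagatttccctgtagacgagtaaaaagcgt
Hsd17b12: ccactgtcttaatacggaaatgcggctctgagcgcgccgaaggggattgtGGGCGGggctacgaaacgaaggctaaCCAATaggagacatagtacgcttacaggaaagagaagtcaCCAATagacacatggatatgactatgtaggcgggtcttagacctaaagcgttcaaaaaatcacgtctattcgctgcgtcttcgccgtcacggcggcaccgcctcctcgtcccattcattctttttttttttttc
Tecr: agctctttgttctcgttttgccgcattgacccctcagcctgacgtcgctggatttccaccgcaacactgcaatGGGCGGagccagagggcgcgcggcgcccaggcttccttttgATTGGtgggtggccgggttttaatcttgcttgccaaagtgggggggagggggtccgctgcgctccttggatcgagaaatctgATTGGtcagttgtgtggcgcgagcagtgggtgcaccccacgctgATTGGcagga

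The 2 boxes, an E-box and a sterol response element were searched on both strands of these windows and of the 32851 windows of all genes in the same table. The CCAAT box occurred 2 times before *Hsd17b12* and 3 times before *Tecr*, and the GC box occurred once before each. None of the motifs was found in the window of *Elovl6*. Over all windows, 33.8% held a CCAAT box and 32.7% a GC box, and of the 11 windows of the elongation cycle genes 4 and 8 did. An E-box (CACGTG) occurred in 1 of the 11 windows, that of *Elovl5*, and in 6.02% of all windows. A sterol response element spelled TCACNCCAC occurred in 0 of the 11 and in 1.05% of all windows. A match in these letters is a description of the window and not of a bound site.

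*Elovl6* encodes the elongase that lengthens palmitate to stearate. It was the most variable of the abundant members. Its level spanned 19.5 to 333.9 CPM in the 22°C mice (median 63.6) and 17.3 to 106 CPM in the 29°C mice (median 35.0). The highest library was 19.3-fold above the lowest over the 13 mice, and the groups overlapped over nearly the whole range at 29°C. Between temperatures the log2 fold change was 1.09 ± 0.63 (SE; 95% interval -0.27 to 2.46; edgeR P-adj = 0.378). Without 22°C replicate 1 the log2 fold change was 0.27, and the largest value with any 1 mouse left out was 1.58. The biological coefficient of variation of *Elovl6*, edgeR's estimate of the spread between mice beyond counting error, was 74.1%, and 96.6% of the genes tested had a lower one. In bulk tissue, fewer cells of a type and less RNA per cell cannot be told apart, for this and for every other level given.

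*Elovl5* encodes the elongase of polyunsaturated fatty acids. It was between 55.5 and 94.3 CPM in the 22°C mice (median 64.8) and between 59.5 and 81.3 CPM in the 29°C mice (median 68.7). All values at 29°C lay inside the range of the cooler mice. Its log2 fold change of -0.03 ± 0.12 (SE; 95% interval -0.28 to 0.22; edgeR P-adj = 0.906) was among the smallest of the members, and its biological coefficient of variation was 16.9%. The sign of this small value turned with the library-total cluster or the muscle score as a covariate, to 0.20 and 0.09.

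*Elovl1* encodes a broadly expressed elongase of saturated and monounsaturated very long chains. It was between 39.4 and 62.7 CPM in the 22°C mice (median 45.1) and between 47.3 and 60.4 CPM in the 29°C mice (median 51.7). In 5 of the 7 mice at 22°C it was below every mouse at 29°C, whereas 22°C replicate 6 had the highest level of all mice. The fitted log2 fold change was -0.20 ± 0.10 (SE; 95% interval -0.42 to 0.02; edgeR P-adj = 0.314). Without 22°C replicate 6 it was -0.29 with P-adj = 0.0829, the only one of the fits tried in which a member passed the threshold. With a term for the library-total cluster the value was -0.05 (edgeR P-adj = 0.927), and it was -0.06 in the higher-total libraries alone (P-adj = 0.908, edgeR) and -0.09 with the muscle score as a covariate (P-adj = 0.771, edgeR). The exons of *Elovl1* overlap those of *Cdc20* on the other strand, which had a mean of 28.9 counts per library, and the strand setting of the counting is not given in the sources used here.

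*Elovl3* encodes an elongase of very long chains known from brown fat and skin. It had at most 65 counts in a library and spanned 0.0422 to 2.04 CPM in the 22°C mice (median 0.671) and 0 to 2.45 CPM in the 29°C mice (median 0.116). At 29°C, 4 mice were at or under 0.154 CPM and 2 mice were above 2 CPM, and these 2 also had the highest skin marker scores, which are given with the relations between genes. Its log2 difference between temperatures was -0.03 ± 0.92 (SE; 95% interval -2.01 to 1.95; edgeR P-adj = 0.992), and its sign changed with the mice included. The exons of *Elovl3* overlap those of *Pitx3* on the other strand, which had a mean of 8.92 counts per library.

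*Elovl4* encodes an elongase of very long and ultra long chains, known from retina, brain and skin. It was between 0.676 and 5.80 CPM in the 22°C mice (median 2.27) and between 0.422 and 6.24 CPM in the 29°C mice (median 0.761). The range of the cooler mice lay inside that at 29°C. Its log2 fold change came to 0.35 ± 0.66 (SE; edgeR P-adj = 0.815) and it was -0.02 without 22°C replicate 3.

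*Elovl7*, a less studied elongase of saturated long chains, was between 0.338 and 2.16 CPM in the 22°C mice (median 0.965) and between 0.379 and 4.51 CPM in the 29°C mice (median 0.558). The level of 4.51 CPM belonged to 29°C replicate 4 and was the highest of all mice. The log2 fold change was -0.38 ± 0.61 (SE; edgeR P-adj = 0.780), and without that mouse it was 0.47. *Elovl2*, which encodes an elongase of long polyunsaturated chains known from liver and retina, had 3 counts in all over the mice at 22°C and 13 over the mice at 29°C, with at most 5 counts in a library, and was not tested. Its levels of 0 to 0.0424 CPM at 22°C were below the level that a count of 0 allows, so no fold change is given.

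Among the partners, *Hsd17b12* encodes the ketoacyl-CoA reductase that takes the second step of the cycle. It was between 94.5 and 198 CPM in the 22°C mice (median 129) and between 66.3 and 169 CPM in the 29°C mice (median 110). The lowest level belonged to 29°C replicate 4, and the groups overlapped over most of their range. The log2 fold change was 0.28 ± 0.22 (SE; 95% interval -0.18 to 0.74; edgeR P-adj = 0.521). It ran from 0.17 without 29°C replicate 4 to 0.43 without 29°C replicate 6.

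*Hacd2* encodes the hydroxyacyl-CoA dehydratase of the next step. It was between 170 and 287 CPM in the 22°C mice (median 222) and between 192 and 276 CPM in the 29°C mice (median 245), and the range at 29°C lay inside that at 22°C. The log2 fold change was -0.15 ± 0.12 (SE; 95% interval -0.40 to 0.11; edgeR P-adj = 0.548). The exons of *Hacd2* overlap those of *Gm21691* on the other strand, which had a mean of 558.5 counts per library. If strand was not used, the counts of either gene may be affected by reads of the other.

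*Tecr* encodes the trans-enoyl-CoA reductase that completes the cycle. It was between 181 and 333 CPM in the 22°C mice (median 253) and between 175 and 268 CPM in the 29°C mice (median 183). Of the 6 mice at 29°C, 5 were at or below 203 CPM and 29°C replicate 6 was at 268 CPM, whereas 4 of the 7 mice at 22°C were at 253 CPM or above. The log2 fold change was 0.30 ± 0.15 (SE; 95% interval -0.03 to 0.62; edgeR P-adj = 0.311). It kept its sign in all 26 alternatives tried, between 0.21 and 0.45, and P-adj was not below 0.210 in any of them.

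Ratios within a library do not depend on scaling between libraries, and 3 of them were taken. Each was put to an exact permutation test, two-sided, with all 1716 splits of the 13 mice, and P-adj covers the 3. The mean log2 ratio of *Elovl6* to *Elovl5* counts was -0.13 ± 1.36 (SD) over the 7 mice at 22°C and -0.94 ± 0.80 (SD) over the 6 mice at 29°C. The difference of 0.82 was smaller than the spread at 22°C (exact permutation p = 0.225; P-adj = 0.337), and it was 0.36 without 22°C replicate 1. The log2 ratio of *Elovl6* to *Scd1*, the desaturase that acts on the product of *Elovl6*, differed by 0.27 (exact permutation p = 0.666; P-adj = 0.666), and by -0.06 without 22°C replicate 1. The log2 ratio of *Elovl3* to *Elovl1*, which are both elongases of saturated and monounsaturated very long chains, was -6.38 ± 1.58 (SD) over the 7 mice at 22°C and -7.94 ± 2.79 (SD) over the 6 mice at 29°C (exact permutation p = 0.223; P-adj = 0.337).

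The levels of the members were then related to each other across the 13 mice, both temperatures together, on log2 CPM. Of 36 pairs, 6 passed P-adj below 0.05, all with positive r, and 4 of these also did by Spearman's rho. They formed 2 sets of 3 genes. One set held *Elovl6*, *Hsd17b12* and *Tecr*, and the other held the low elongases *Elovl3*, *Elovl4* and *Elovl7*. *Hacd2*, *Elovl1* and *Elovl5* were in no pair that passed.

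**Figure D3:**
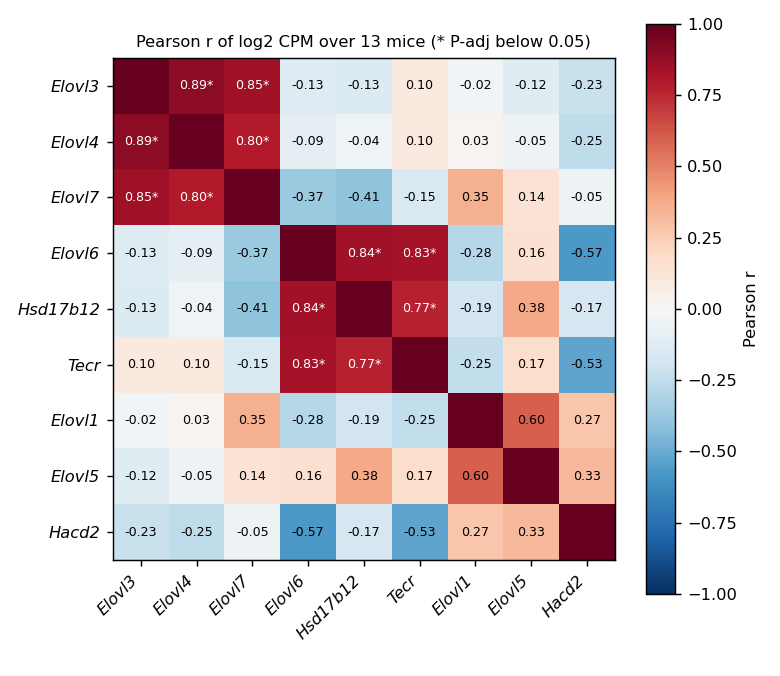
Pearson's r of log2 CPM over 13 mice for each pair of the 9 tested genes, in colour from -1 (blue) to 1 (red), with asterisks for P-adj below 0.05 over 36 pairs. The asterisks fall in 2 blocks, *Elovl3*, *Elovl4* and *Elovl7* with each other and *Elovl6*, *Hsd17b12* and *Tecr* with each other.

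In the set of *Elovl6* and the reductases, *Elovl6* and *Hsd17b12* had r = 0.840 (permutation p = 0.00042; P-adj = 0.00504) and rho = 0.802 (permutation p = 0.00168; P-adj = 0.0202). Without the 2 mice farthest from the median of *Hsd17b12* r was 0.805. *Elovl6* and *Tecr* had r = 0.832 (permutation p = 0.00057; P-adj = 0.00513) and rho = 0.692 (permutation p = 0.0111; P-adj = 0.0801), and *Hsd17b12* and *Tecr* had r = 0.772 (permutation p = 0.00192; P-adj = 0.0115) and rho = 0.676 (permutation p = 0.014; P-adj = 0.084). Left without the 2 farthest mice, these 2 values of r were 0.698 and 0.623. Within each temperature r was between 0.697 and 0.862 for the 3 pairs, and over the 8 libraries of the higher-total cluster it was between 0.639 and 0.785. The cluster of lower totals holds 5 libraries, too few for a value.

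The same 3 genes varied with genes that supply the cycle. Each of the 9 tested members was related to 24 genes of fatty acid synthesis, activation and desaturation, and 22 of these 216 relations passed P-adj below 0.05, 21 of them positive. *Elovl6*, *Hsd17b12* and *Tecr* had 7 each and *Elovl5* had 1, and 11 of the 22 also passed by Spearman's rho. *Elovl6* had r = 0.966 (permutation p = 1e-05, the smallest that 100000 permutations can give; P-adj = 0.00036) and rho = 0.973 (permutation p = 1e-05; P-adj = 0.00108) with *Me1*, which encodes malic enzyme, a source of NADPH for fatty acid synthesis. Without the 2 mice farthest from the median of *Me1* r was 0.924, within temperatures it was 0.990 at 22°C and 0.936 at 29°C, and within the higher-total cluster it was 0.944. With *Fasn*, which encodes fatty acid synthase, *Elovl6* had r = 0.920 (permutation p = 1e-05; P-adj = 0.00036) and rho = 0.951 (permutation p = 1e-05; P-adj = 0.00108), and r was 0.955 without the 2 farthest mice and 0.948 within the higher-total cluster.

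*Hsd17b12* was related most closely to *Acss2*, which encodes a cytosolic acetyl-CoA synthetase, with r = 0.918 (permutation p = 1e-05; P-adj = 0.00036) and rho = 0.863 (permutation p = 0.00038; P-adj = 0.0117). Without the 2 farthest mice r was 0.911, and within the higher-total cluster it was 0.888. With *Fads1*, a desaturase of polyunsaturated fatty acids, *Hsd17b12* had r = 0.913 (permutation p = 3e-05; P-adj = 0.000648) and rho = 0.890 (permutation p = 6e-05; P-adj = 0.00302), with 0.858 and 0.910 in the same checks. *Tecr* had r = 0.873 (permutation p = 0.00012; P-adj = 0.00216) and rho = 0.753 (permutation p = 0.00447; P-adj = 0.069) with *Me1*, with 0.749 and 0.787. The single negative relation was that of *Tecr* with *Acsl5*, an acyl-CoA synthetase (r = -0.76; permutation p = 0.00221; P-adj = 0.0281; rho = -0.72; permutation p = 0.00762; P-adj = 0.0914; -0.59 and -0.82 in the same checks). All points of these relations share their library and its scaling factor.

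**Figure D4:**
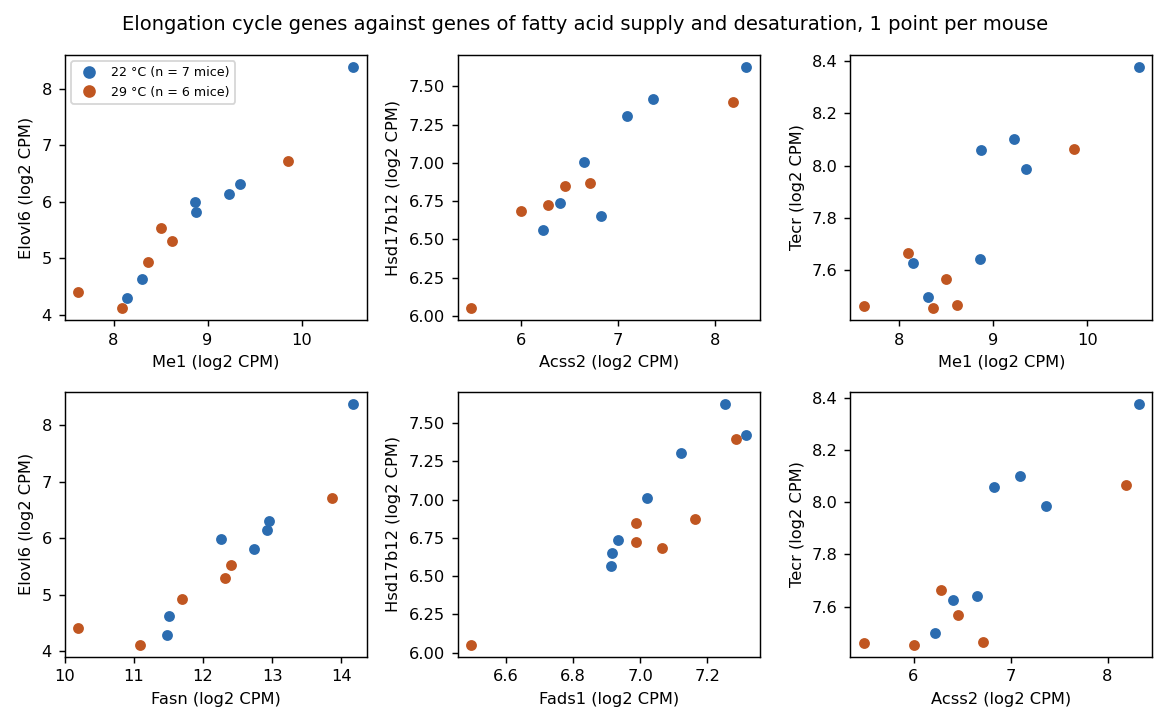
Levels of *Elovl6*, *Hsd17b12* and *Tecr* against *Me1*, *Fasn*, *Acss2* and *Fads1*, in log2 CPM, with 1 point per mouse coloured by temperature. Points of both temperatures overlap in each panel, and 22°C replicate 1 and 29°C replicate 6 are the mice with the highest levels of *Elovl6*.

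The 2 mice at the upper end of these relations were 22°C replicate 1 and 29°C replicate 6. In 22°C replicate 1, *Elovl6* was 333.9 CPM, *Tecr* 333 CPM, *Hsd17b12* 198 CPM and *Fasn* 18400 CPM, each the highest of the 13 mice. In 29°C replicate 6 the values were 106 CPM, 268 CPM, 169 CPM and 14940 CPM, each the highest at 29°C. Skeletal muscle markers took 6.15% of counts in the first of these mice, and their score was the lowest of all mice in the second, at 0.33 log2 CPM. Across the 13 mice r with the muscle score was between -0.70 for *Elovl1* and 0.21 for *Tecr*, and none of the members' relations with it passed (lowest P-adj = 0.135, permutation test).

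The low elongases varied together with r = 0.891 for *Elovl3* and *Elovl4* (permutation p = 0.00014; P-adj = 0.00504; rho = 0.885; permutation p = 0.00012; P-adj = 0.00432), r = 0.846 for *Elovl3* and *Elovl7* (permutation p = 0.00032; P-adj = 0.00504; rho = 0.841; permutation p = 0.00062; P-adj = 0.0112) and r = 0.795 for *Elovl4* and *Elovl7* (permutation p = 0.00131; P-adj = 0.00943; rho = 0.753; permutation p = 0.00448; P-adj = 0.0403). Without the 2 farthest mice r was 0.893, 0.803 and 0.699. Within the higher-total cluster it was 0.890, 0.934 and 0.958.

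Levels of these 3 genes are set here beside markers of epidermis and hair follicle. The score of these markers, the mean log2 CPM of all 14 listed markers, was below 0 in 8 mice and between 2.04 and 5.77 in 5, which were 22°C replicates 4, 5 and 6 and 29°C replicates 4 and 5. The summed level of all 14 markers was 16.7 to 663 CPM in the 22°C mice and 19.0 to 1854 CPM in the 29°C mice. By mean CPM, without division by length, the 2 highest of them were *Krt71*, a keratin of the hair follicle, and *Dsp*, a protein of desmosomes. *Krt71* was at 0 to 384 CPM in the 22°C mice (median 10.6) and 0 to 971 CPM in the 29°C mice (median 0.750). *Dsp* was at 0.0452 to 71.1 CPM in the 22°C mice (median 2.855) and 0 to 162 CPM in the 29°C mice (median 1.873). Of the 14 markers, 9 were at 0 in at least 1 mouse and none was at 0 in all mice. *Elovl7* was between 0.338 and 0.997 CPM in the 8 mice with low scores and between 0.965 and 4.51 CPM in the other 5. *Elovl3* was between 0 and 1.09 CPM in the former and between 0.671 and 2.45 CPM in the latter, and *Elovl4* between 0.422 and 5.80 CPM and between 2.27 and 6.24 CPM.

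Because the scores fell into 2 separate sets, no r over all mice is given for them, and 5 mice are too few for a value of their own. Within the 8 mice with low scores r with the score was 0.223 for *Elovl3*, 0.377 for *Elovl4* and 0.378 for *Elovl7* (exact permutation p = 0.590, 0.382 and 0.343; P-adj = 0.590, 0.458 and 0.458 over 6 relations; rho = 0.333, -0.07 and 0.524; exact permutation p = 0.428, 0.882 and 0.197). In the same 8 mice r between the genes was 0.804 for *Elovl3* and *Elovl4*, 0.651 for *Elovl3* and *Elovl7* and 0.539 for *Elovl4* and *Elovl7* (exact permutation p = 0.0116, 0.0859 and 0.166; P-adj = 0.0698, 0.258 and 0.332; rho = 0.571, 0.476 and 0.167; exact permutation p = 0.151, 0.243 and 0.703), so none of the 3 pairs passed within these mice. The part of skin cells in the levels of these genes was not tested. With the score as a covariate, the log2 fold change of *Elovl3* was 1.08 (P-adj = 0.407, edgeR) and that of *Elovl7* was 0.15 (P-adj = 0.801, edgeR), in place of -0.03 and -0.38. *Elovl4* moved from 0.35 to 1.03 with the covariate (P-adj = 0.279, edgeR) and to 1.80 without the 5 mice of high score (P-adj = 0.254, edgeR).

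**Figure D5:**
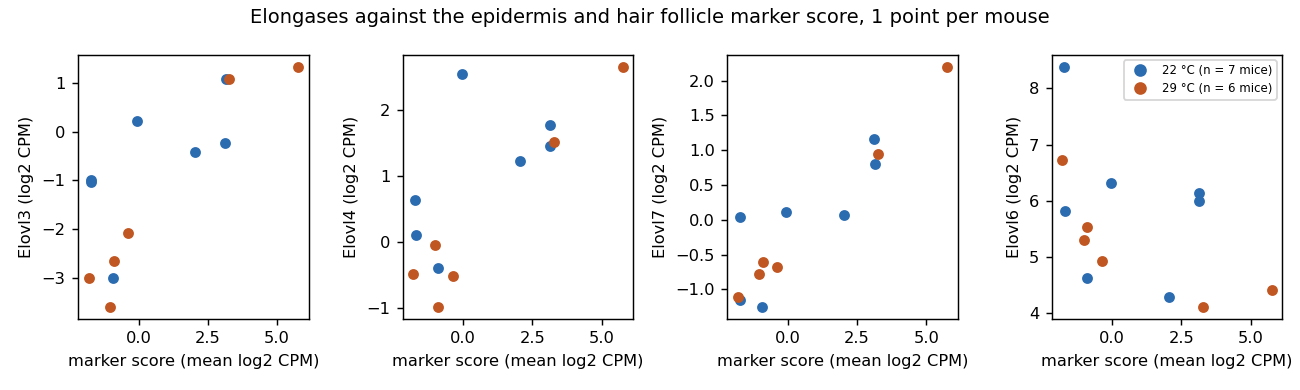
Levels of *Elovl3*, *Elovl4*, *Elovl7* and *Elovl6* (log2 CPM) against the score of epidermis and hair follicle markers (mean log2 CPM), with 1 point per mouse coloured by temperature. The scores form a set of 8 mice below 0 and a set of 5 mice above 2.04, the second with mice of both temperatures, and *Elovl7* lies between 0.965 and 4.51 CPM in the second set.

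The genes whose levels across the 13 mice were most like those of the members with the smallest p were also listed, as a description. For *Tecr* these were *mt-Atp6* (r = 0.957), *Xrcc6* (r = 0.940) and *Gm10925* (r = 0.934), which is annotated as a pseudogene and may share reads with another gene. For *Elovl1* they were *Fam32a* (r = 0.947), *Atf6b* (r = 0.934) and *Zfp414* (r = 0.906). For *Elovl6*, which was added because of its spread, they were *Me1* (r = 0.966), *Slc2a5* (r = 0.964) and *Map3k15* (r = 0.962).

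Other genes around the cycle were counted from lists. Beside these counts stand the shares over all genes tested, 1.94% past the threshold in edgeR and 18.5% at an unadjusted p below 0.05. With DESeq2 the share was 10.2% of the 16388 genes with an adjusted p. Of the remaining dehydratases and the second enoyl reductase, *Hacd1*, *Hacd3* and *Hacd4* were tested and *Tecrl* was not, with at most 0.580 CPM. None of the 3 passed (edgeR), 1 had an unadjusted p below 0.05, and 1 passed with DESeq2. This was *Hacd1*, a dehydratase abundant in muscle, at 16.4 to 32.7 CPM in the 22°C mice (median 19.4) and 13.5 to 19.5 CPM in the 29°C mice (median 15.4). Its log2 fold change was 0.48 ± 0.17 (SE; edgeR P-adj = 0.177; P-adj = 0.0793, DESeq2). It was 0.24 with the muscle marker score as a covariate (P-adj = 0.570, edgeR) and 0.48 with the muscle markers removed from the table (P-adj = 0.181, edgeR). *Hacd3* and *Hacd4* had log2 fold changes of -0.05 and -0.13.

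Of 12 genes around the supply of malonyl-CoA, palmitate and acyl-CoA, 10 had a positive log2 fold change, with a median of 0.35. Over all genes tested 9167 of 17779 were positive. *Me1* and *Fasn* of this list both varied closely with *Elovl6* across the mice, so the 10 are not separate observations. In the list 4 genes had an unadjusted p below 0.05, 3 passed with DESeq2, and 1 passed the threshold in edgeR. That gene was *Mlycd*, whose product, malonyl-CoA decarboxylase, removes malonyl-CoA. It was between 45.5 and 58.3 CPM in the 22°C mice (median 50.9) and between 35.6 and 45.7 CPM in the 29°C mice (median 41.0), so the groups met only at their edges. *Mlycd* was higher at 22°C by 0.34 ± 0.07 on the log2 scale (SE; edgeR P-adj = 0.0724). *Fasn* was between 2853 and 18400 CPM in the 22°C mice and between 1175 and 14940 CPM in the 29°C mice, with a log2 fold change of 0.46 ± 0.56 (SE; edgeR P-adj = 0.708). Without 22°C replicate 1 the value for *Fasn* was 0.05, and without 29°C replicate 6 it was 1.1. *Acsl1*, the main acyl-CoA synthetase of adipocytes, had a log2 fold change of 0.15 ± 0.20 (SE; edgeR P-adj = 0.730).

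Among 12 desaturases and their electron carriers the median log2 fold change was 0.05. Here 2 genes had an unadjusted p below 0.05, 1 passed with DESeq2, and the same 1 passed in edgeR. *Fads3*, a member of the desaturase family that acts on sphingoid bases, was between 307 and 492 CPM in the 22°C mice (median 337) and between 476 and 656 CPM in the 29°C mice (median 595). It was lower at 22°C by a log2 fold change of -0.59 ± 0.13 (SE; edgeR P-adj = 0.0726), and the groups overlapped by the highest mouse at 22°C. *Scd1* was between 15470 and 36730 CPM in the 22°C mice (median 27260) and between 10850 and 30690 CPM in the 29°C mice (median 19810). Its log2 fold change was 0.47 ± 0.24 (SE; edgeR P-adj = 0.319), and it was 0.07 in the higher-total libraries alone (P-adj = 0.959, edgeR).

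Of 14 genes listed around the use of very long acyl-CoA, not all of which prefer such chains, 12 were tested. Their median log2 fold change was -0.0028, 3 had an unadjusted p below 0.05, 2 passed with DESeq2 and 1 passed in edgeR. *Cers6*, a ceramide synthase known to prefer palmitoyl-CoA over longer chains, was between 22.2 and 34.6 CPM in the 22°C mice (median 29.6) and between 34.5 and 52.7 CPM in the 29°C mice (median 39.0). It was lower at 22°C by a log2 fold change of -0.50 ± 0.12 (SE; edgeR P-adj = 0.0873). *Abcd2*, a peroxisomal transporter of long acyl-CoA, had a log2 difference of -0.28 (P-adj = 0.185, edgeR; P-adj = 0.0675, DESeq2). Of 13 regulators of elongase genes none passed (edgeR), 2 (*Ppargc1a* and *Ppara*) had an unadjusted p below 0.05 and 1 (*Ppargc1a*, P-adj = 0.0663) passed with DESeq2, with log2 fold changes of 0.01 for *Srebf1* and -0.20 for *Pparg*.

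The 3 calls in these lists were lost in several fits. Leaving out 1 mouse at a time, *Mlycd* passed in 6, *Fads3* in 4 and *Cers6* in 3 of 13 fits. *Mlycd* was lost without 22°C replicates 1, 3 and 7 and 29°C replicates 1 to 4 (edgeR P-adj up to 0.163). *Fads3* was lost without 22°C replicates 1, 4 and 7 and with any 1 of the 6 mice at 29°C left out (edgeR P-adj up to 0.156), and *Cers6* without 22°C replicates 1, 3, 5 and 7 and with any 1 of the 6 mice at 29°C left out (edgeR P-adj up to 0.192). None of the 3 passed with the library-total cluster or the muscle score as a covariate, and all 3 log2 fold changes kept their sign in these fits.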

How the data were processed

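Per the labels, gluteal WAT RNA of each of 13 mice was sequenced as 1 library, and mice were grouped by the housing temperature in the labels. The authors aligned reads with STAR 2.7.5a and counted them per gene with featureCounts, and the deposited counts are not normalized. The authors also deposited regularized log2 values made with DESeq2. The submitters' processing notes name build GRCm39, whereas the annotation and strand setting are not given in the sources used here. Gene names were matched by identifier without its version to GENCODE and RefSeq tables of GRCm38, which gave a symbol for 34006 of 34419 identifiers. Exon lengths and overlaps come from the same GENCODE annotation.

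Counts were tested with edgeR 4.0.16 in R 4.3.3 (TMM, filterByExpr, quasi-likelihood F test, Benjamini-Hochberg adjustment over 17779 genes, P-adj below 0.1). CPM were scaled by TMM, and log2 CPM add a prior count of 2. An SE is the absolute log2 fold change over the square root of F. Ratios added 0.5 counts. Correlations used 100000 permutations, or all orders for 8 mice, in SciPy 1.17.1. Motifs were searched with exact letters. The scripts were tested on simulated data.

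The members and the gene lists were chosen with earlier results of these data known. Named by rule were all members, *Hacd1*, *Hacd3*, *Hacd4*, *Tecrl*, *Scd1*, pathway genes past the threshold, the 2 most abundant tested genes of each pathway list, the 3 genes most like each of the 2 members with the smallest p, and the 2 most abundant genes of a marker list. One gene that the rule gives is not reported here. *Me1*, *Acss2*, *Fads1*, *Acsl5*, *Slc2a5*, *Map3k15*, *Ppara*, *Ppargc1a* and the marker genes named under other observations were chosen after their values were seen. Lists of brown and beige fat, sebaceous gland, luminal epithelium, macrophage, lymphocyte, endothelium, fibroblast and Schwann cell markers were also scored.

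Tried in place of these choices were the DESeq2 1.42.0 test, its size factors in edgeR, no filter, a mean of at least 10 counts, a robust fit, the replicate number as a block, each mouse left out, the library-total cluster as a covariate, the higher-total cluster alone, the muscle score as a covariate, muscle markers removed, limma 3.58.1 on the authors' log2 values and P-adj below 0.05. The epidermis and hair follicle score as a covariate, and the 5 mice with the highest such score left out, were added after the data were seen. Each label names a separate mouse sample, and all pairs of libraries differed by more than counting error (lowest chi-square per gene 16.9 over 78 pairs).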

Additional observations from a re-analysis of the deposited data

Results flagged for a closer look

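Within each temperature, the highest and lowest mouse of each of 23 named genes was set against the spread of the others, in 46 groups. In 7 groups 1 mouse stood apart, each time as the highest. The cutoff puts about 1 in 20 groups there by chance only for normally distributed values, which was not checked for CPM. Several of the 7 also share a mouse through genes that varied together, so their number is not set against chance.

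*Elovl6* was 333.9 CPM in 22°C replicate 1, where the next mouse of that group was at 79.4 CPM, and 105.5 CPM in 29°C replicate 6, where the next was at 46.2 CPM. *Fasn* stood apart in the same mice, at 18400 CPM and 14940 CPM. *Tecr* was 267.7 CPM in 29°C replicate 6, against 202.7 CPM in the next mouse. *Elovl1* was 62.7 CPM in 22°C replicate 6, against 47.8 CPM in the next. *Elovl7* was 4.51 CPM in 29°C replicate 4, the mouse with the highest epidermis and hair follicle score, against 1.84 CPM in the next.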

How the results depend on the processing

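Of the 229 log2 fold changes of the 9 tested members over 26 alternatives, 208 kept their direction and 1 passed the threshold. Members past it numbered 0 in every fit but the one without 22°C replicate 6, where *Elovl1* passed, so that the range over single mice left out was 0 to 1. Genes called numbered 345. They were 1676 with DESeq2, 42 with no filter, 4 with the library-total cluster as a covariate, 8 in the higher-total libraries alone, 46 with the muscle score as a covariate, 40 at P-adj below 0.05, 214 with the epidermis score as a covariate, 1 without the 5 mice of highest epidermis score, and 32 to 652 with 1 mouse left out. Genes called in the pathway lists numbered 3. They were 8 with DESeq2, 0 with no filter, with the cluster or muscle score as a covariate, in the higher-total libraries and without the 5 mice, and 0 to 4 with 1 mouse left out.

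With the replicate number as a block, 214 genes, 0 members and 0 pathway genes were called, and the log2 fold change of *Elovl3* was 0.71. Deviations of mice with the same number correlated at 0.0508 to 0.513 over 6 pairs, 5 of them above 0.1, and 2 pairs correlated best with their own number, so the numbers were not taken to pair the mice.

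Directions turned for low or small values. *Elovl3* was 1.08 with the epidermis score as a covariate and 0.10 with limma, and ran from -0.29 to 0.75 over 9 fits with 1 mouse left out, being too low to test in the other 4. *Elovl4* was -0.0761 with the library-total cluster as a covariate and -0.0896 in the higher-total libraries, and ran from -0.0201 to 1.2 with 1 mouse left out. *Elovl5* was 0.196, 0.185 and 0.0908 with the cluster as a covariate, in the higher-total libraries and with the muscle score, and ran from -0.131 to 0.0168. *Elovl7* was 0.16 and 0.148 with the cluster as a covariate and in the higher-total libraries, 0.151 with the epidermis score and 0.406 without the 5 mice, and ran from -0.66 to 0.47. *Hacd3* was 0.0367 with the muscle score. *Srebf1* was -0.00204 with limma and -0.136 without the 5 mice, and ran from -0.0687 to 0.0812. The log2 ratio of *Elovl6* to *Scd1* ran from -0.0611 without 22°C replicate 1 to 0.525. The cause of these changes was not tested.

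The 5 lower-total libraries are all from 22°C, so total and temperature can be separated only through 2 mice at 22°C. *Elovl2* was too low to test, and *Elovl3*, *Elovl4*, *Elovl6* and *Elovl7* had biological coefficients of variation of 73.9% to 120%.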

Other observations

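Marker lists of other cell types were scored in the same libraries, and 99 relations between the 9 tested members and 11 scores were computed. One of them passed P-adj below 0.05, that of *Elovl7* with the epidermis and hair follicle score, for which values within the 8 mice of low score are given in the report. All 9 tested brown and beige fat markers had a positive log2 fold change, with a median of 2.26. Of these, 3 (*Cidea*, *Cox8b* and *Otop1*) passed the threshold in edgeR, 8 had an unadjusted p below 0.05 and 7 passed with DESeq2. Over all genes tested these shares were 1.94%, 18.5% and 10.2%, the last over the genes with an adjusted p in DESeq2. *Ucp1*, the defining gene of thermogenic fat, was not tested, at 0 to 0.369 CPM at 22°C and 0 CPM in all 6 mice at 29°C. The summed level of the list was 85.1 to 449.1 CPM at 22°C and 66.7 to 107 CPM at 29°C. It was highest in 22°C replicates 1 and 7, at 449.1 and 363.9 CPM, the mice with the highest shares of muscle marker counts, 6.15% and 8.59%. *Cox8b*, *Cox7a1* and *Cpt1b* of this list are also known from muscle, whose part in these values was not tested. Over the 13 mice r with the score of the brown and beige fat list ran from -0.74 for *Elovl1* to 0.71 for *Tecr* (lowest P-adj = 0.0898, permutation test), and *Elovl3*, which is known from brown fat, had r = 0.224 (permutation p = 0.462; rho = 0.203; permutation p = 0.506). This score was 2.29 to 4.28 at 22°C and 1.03 to 1.95 at 29°C, so r over all mice also holds the difference between temperatures. Within 22°C and 29°C r was -0.73 and -0.32 for *Elovl1*, 0.67 and 0.49 for *Tecr*, and -0.05 and 0.12 for *Elovl3*.

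Of 10 sebaceous gland markers, 8 were tested, 4 with a positive and 4 with a negative log2 fold change. In edgeR 1 (*Cidea*, which is also on the list above) passed as higher at 22°C. With DESeq2 2 passed, *Cidea* as higher and *Awat2* as lower (edgeR log2 fold change -2.41; P-adj = 0.168, edgeR; P-adj = 0.0260, DESeq2). *Awat2* was low, at 0.369 to 0.680 CPM at 22°C (median 0.497) and 0.211 to 11.9 CPM at 29°C (median 0.805). Of its 408 counts at 29°C, 309 were from 1 mouse. The summed level of the list was 248 to 375 CPM at 22°C and 229 to 339 CPM at 29°C. Most of it was *Plin2*, at 193 to 293 CPM and 175 to 290 CPM. The remaining lists had 0 tested genes past the threshold (edgeR) for luminal epithelium, macrophage, endothelium, fibroblast and Schwann cell markers, with 0, 1, 1, 1 and 1 genes at an unadjusted p below 0.05 and 0 with DESeq2 in each. Of 9 lymphocyte markers 1 (*Cd3e*) passed as higher at 22°C in edgeR and 0 passed with DESeq2, which gave *Cd3e* no adjusted p. *Cd3e* was low, at 0.466 to 2.03 CPM at 22°C and 0.0842 to 0.541 CPM at 29°C. Of 10 mature adipocyte markers 1 (*Lep*, which encodes leptin) passed as lower at 22°C in edgeR, and it passed with DESeq2. Epidermis and hair follicle markers had 0 of 10 past the threshold (edgeR) and 0 at an unadjusted p below 0.05, with a median log2 fold change of -1.06. With DESeq2, which gave *Krt14*, *Krt10* and *Lor* no adjusted p, 0 passed.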
